A study of Mus musculus with 7 samples.

Results

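The nuclear genes for subunits of the oxidative phosphorylation complexes were described in 7 ileal RNA-seq libraries of mice on a normal or a low cystine diet. Members were taken by gene symbol from the deposited table: names that begin with Nduf and 1 of the letters a, b, c, s or v before a number, names that begin with Uqcr, Cox4 to Cox8 or Atp5, and Sdha, Sdhb, Sdhc and Sdhd, without names that contain -ps. This gave 85 of 38293 genes: 37 for complex I, 4 for complex II, 8 for complex III, 18 for complex IV and 18 for complex V. Symbols do not map fully onto the complexes. The rule also took Atp5s, Atp5sl and Cox7a2l, whose products are assembly or supercomplex factors and not structural subunits, and Atp5l2, a copy of Atp5l. It missed Ndufab1, Cyc1, Usmg5 and 2010107E04Rik, which encode subunits under other names and are given further on.

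The mice were 8-week-old males of the C57BL/6NRJ strain without any transgene, housed individually. Both groups ate a high-fat, low-calcium AIN93-G diet for 1 week of acclimatization and 2 weeks of intervention. During acclimatization all mice had the control diet with added L-cystine. In the intervention the diet of the normal cys group (4 libraries) contained 0.3% added L-cystine. In the low cys group (3 libraries) alanine took its place, and the cystine left in that diet came from casein, per the paper. RNA came from scrapings of the ileum, the distal end of the small intestine, which hold epithelium with lamina propria and leave the muscle layer behind, so that the level of a gene in these bulk samples cannot separate fewer cells of a type from less RNA per cell. Values per library are given in a fixed order throughout: normal cys libraries X17SI4, X32SI4, SI9 and X1SI4, then low cys libraries X23SI4, X26SI4 and X10SI4. Nothing in the labels states that libraries are separate animals, although the paper describes individually housed mice with scrapings collected per mouse. If libraries shared an animal, p-values would measure only the spread between these samples.

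Oxidative phosphorylation takes place at the inner mitochondrial membrane. Complex I (NADH dehydrogenase) and complex II (succinate dehydrogenase) pass electrons to ubiquinone, complex III passes them on to cytochrome c, and complex IV (cytochrome c oxidase) reduces oxygen. Complexes I, III and IV pump protons, and complex V (ATP synthase) uses the gradient to make ATP. Most subunits are encoded in the nucleus and imported, whereas a few of the core subunits of complexes I, III, IV and V are encoded by mitochondrial DNA (mtDNA). Cysteine has particular roles in these proteins, since it ligates iron-sulfur clusters, supplies the sulfur for them through the desulfurase Nfs1, and forms the disulfides of small subunits of the twin CX9C family. Absorptive enterocytes of the villus are rich in mitochondria.

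The libraries held 14888760 to 22412703 counts, of which the members took 1.08% to 1.42% and the mtDNA-encoded genes 6.08% to 11.0%, with the highest mtDNA share in SI9. Of the 85 members, 56 had over 1000 counts in every library, so that counting error was small for most. Levels are given as CPM (counts scaled to a fixed library total) on library sizes scaled by TMM, the trimmed mean of M-values. RPKM (CPM per kilobase of the exon length in the deposited table) is given where genes are compared with each other. That length joins all annotated exons of a gene, so that an order by RPKM depends on the annotation. Epithelial markers were abundant in all libraries, at a summed 9456 to 10605 CPM for 6 general epithelial genes in normal cys and 8646 to 9198 CPM in low cys. The summed level of 11 enterocyte markers was 44395 to 66661 CPM in normal cys and 24721 to 44265 CPM in low cys, and that of 8 stromal markers was 10.9 to 21.1 and 25.1 to 32.5 CPM. The sum of 7 B and plasma cell markers, of which 5 had estimates above 0 and 2 below, was 198 to 341 and 366 to 420 CPM. On TMM scaling none of these 4 ranges overlapped between the diets, although the enterocyte ranges came as close as 44265 and 44395 CPM. With plain library size the ranges of the epithelial and enterocyte sums overlapped. The sums of goblet, T cell, macrophage, endothelial, smooth and striated muscle and enteric neuron markers overlapped with TMM already. All 9 crypt proliferation and all 7 Paneth cell markers had estimates above 0, with median log2 fold changes of 0.62 and 0.78 and overlapping sums. The part of these differences in the results below was not tested.

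Promoter windows of 300 bases (250 before to 50 after the RefSeq start, GRCm38.p6) were matched for 69 members and searched on both strands for the binding motifs of factors known for subunit genes. The motif GCGCATGCG of NRF1 was in 11.6% of the members' promoters and 1.95% of 27025 promoters of that length. The ETS motif CCGGAAG, bound by GABP, was in 23.2% and 9.93%, and the motif AAGATGGC of YY1 in 15.9% and 3.19%. The YY1 motif was found in 21.9% of complex I promoters and 25% of complex V promoters, and in none of the 3, 5 and 13 promoters of complexes II, III and IV. Windows are shown for members that the results return to, with a match to 1 of these motifs or its reverse complement in capitals. The pair Cox6b1 and Cox6b2, at chr7:30626065-30626364 and chr7:4753045-4753344, both on the minus strand, encode the general and the testis-type isoform of the same complex IV subunit, and the ETS match lies in the first alone.
Cox6b1: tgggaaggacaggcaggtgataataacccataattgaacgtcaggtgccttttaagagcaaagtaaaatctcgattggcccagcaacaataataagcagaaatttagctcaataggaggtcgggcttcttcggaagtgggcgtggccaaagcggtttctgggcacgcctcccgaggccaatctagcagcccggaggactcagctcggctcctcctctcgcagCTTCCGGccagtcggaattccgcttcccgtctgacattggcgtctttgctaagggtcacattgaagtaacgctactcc
Cox6b2: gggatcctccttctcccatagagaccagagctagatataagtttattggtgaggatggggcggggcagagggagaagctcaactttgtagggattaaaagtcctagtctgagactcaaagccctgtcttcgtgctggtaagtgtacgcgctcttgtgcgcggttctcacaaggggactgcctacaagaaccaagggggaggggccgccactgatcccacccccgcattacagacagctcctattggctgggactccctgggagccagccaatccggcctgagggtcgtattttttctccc
Cox7a1, at chr7:30183921-30184220 on the plus strand, encodes the heart and skeletal muscle isoform of another complex IV subunit and had none of these matches.
Cox7a1: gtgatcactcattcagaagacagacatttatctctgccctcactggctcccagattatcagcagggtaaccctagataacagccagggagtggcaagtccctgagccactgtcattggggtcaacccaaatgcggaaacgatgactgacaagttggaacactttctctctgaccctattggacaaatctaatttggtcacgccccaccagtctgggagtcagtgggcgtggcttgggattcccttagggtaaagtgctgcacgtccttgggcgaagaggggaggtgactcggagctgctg
The promoters of Ndufa3 (complex I) at chr7:3617123-3617422 on the plus strand and of Atp5j (complex V) at chr16:84834927-84835226 on the minus strand each hold a YY1 match, and that of Atp5j also an ETS match. A second Atp5j window, at chr16:84835576-84835875, held neither.
Ndufa3: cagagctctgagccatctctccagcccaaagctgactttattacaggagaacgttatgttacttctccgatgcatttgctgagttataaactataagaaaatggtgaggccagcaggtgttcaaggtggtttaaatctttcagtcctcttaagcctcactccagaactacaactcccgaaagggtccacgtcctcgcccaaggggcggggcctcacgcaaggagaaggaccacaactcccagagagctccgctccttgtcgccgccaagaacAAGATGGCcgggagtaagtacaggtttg
Atp5j: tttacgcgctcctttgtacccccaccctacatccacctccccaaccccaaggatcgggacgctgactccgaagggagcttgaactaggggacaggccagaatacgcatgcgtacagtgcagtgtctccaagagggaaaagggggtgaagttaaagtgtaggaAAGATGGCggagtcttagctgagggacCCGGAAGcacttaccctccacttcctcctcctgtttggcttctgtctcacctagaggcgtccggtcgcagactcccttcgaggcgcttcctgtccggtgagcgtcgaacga
Uqcr11 (complex III), at chr10:80406772-80407071 on the minus strand, holds both an NRF1 and an ETS match.
Uqcr11: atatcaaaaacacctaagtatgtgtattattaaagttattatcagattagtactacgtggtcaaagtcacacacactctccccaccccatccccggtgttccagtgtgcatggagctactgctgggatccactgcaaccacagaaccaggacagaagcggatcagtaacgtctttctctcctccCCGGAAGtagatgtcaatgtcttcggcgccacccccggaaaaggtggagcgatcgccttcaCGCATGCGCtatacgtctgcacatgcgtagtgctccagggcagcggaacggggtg
These matches are descriptions of the letters in the windows and were not tied to any change in level.

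No member passed the test for a difference between the diets. Of the 85 members, 79 were among the 14869 genes tested with edgeR's quasi-likelihood test and Benjamini-Hochberg adjustment, and 0 had an adjusted p under 0.05, as did 0% of all genes tested. DESeq2 also called 0 members, against 0.108% of all genes. At an unadjusted p under 0.05 in edgeR, 0 members were higher in low cys, where the share of all genes was 2.66%, and 1 member, Cox6b2, was lower, where the share of all genes was 2.83%. In 0 members did every low cys library lie above every normal cys library (3.32% of all genes), and in 2, Ndufa6 and Atp5j, every low cys library lay below (3.51% of all genes). With all 7 libraries, member counts in each of these classes were thus at or under the share of all genes. Without X1SI4 this no longer held for members that were lower, as given further on.

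The estimates were small and mostly narrow. The median log2 fold change (low minus normal cys) was -0.07 over the 79 members and 0.01 over all genes, and 77 members lay within 0.3 of 0 on the log2 scale, as did 69.1% of all genes. The 95% confidence interval of the log2 fold change lay within -0.6 to 0.6 for 77 members, all but Cox6b2 and Cox7a1. The median standard error was 0.13 for members and 0.22 for all genes. The estimate was below 0 for 60 of the 79 members, beside 48.8% of all genes. With plain library size in place of TMM the median of all genes moved to 0.15, and on that scale the estimate was above 0 for 69 members, with a median of 0.07. Relative to the median of all genes, the members' median was -0.08 under both scalings. This match follows from the arithmetic, since a change of scaling shifts all genes about alike, so that it is no check of the direction.

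**Figure D1:**
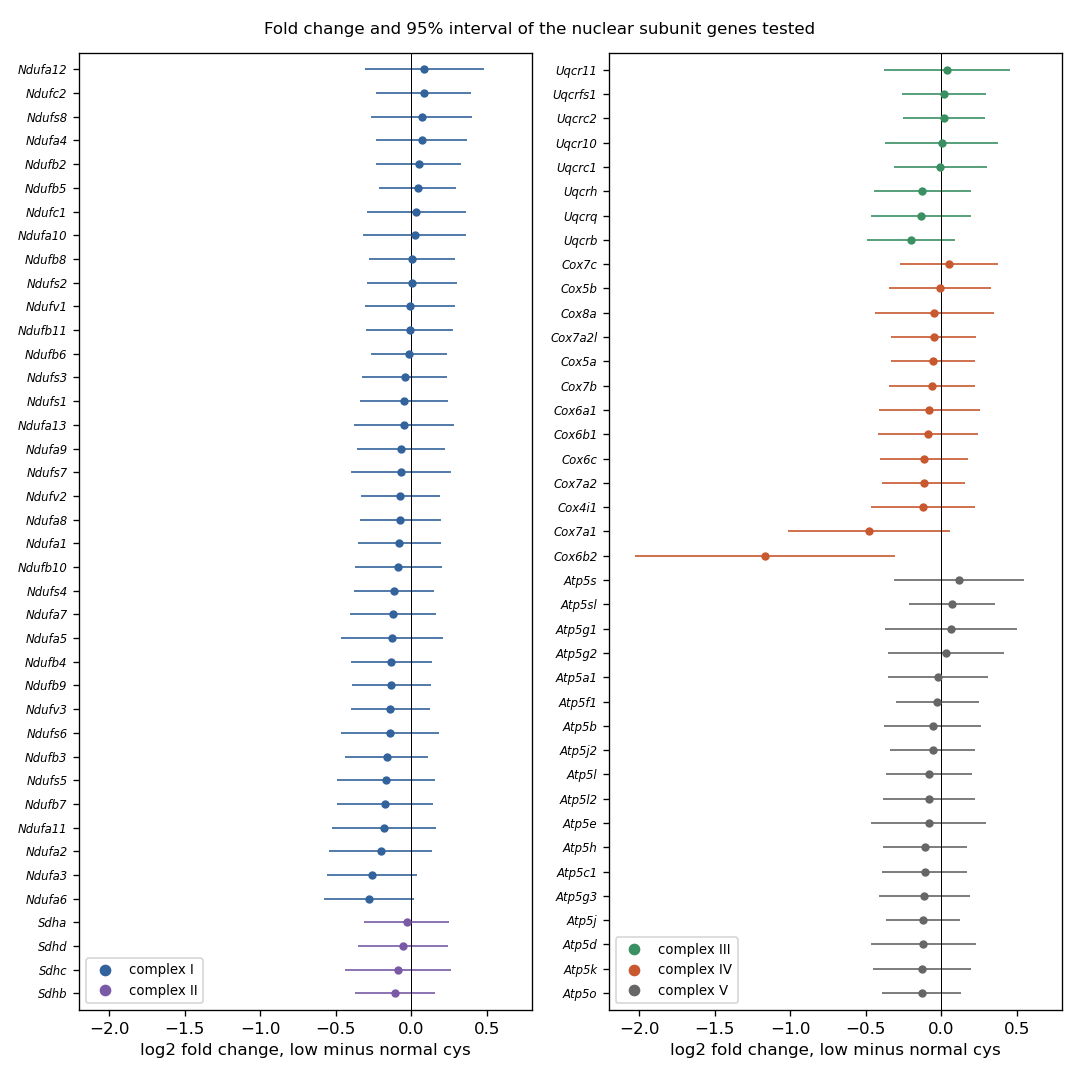
Log2 fold change (low minus normal cys, x axis) of the 79 members tested, 1 per line and coloured by complex, with lines for the 95% confidence interval from edgeR. All intervals except that of Cox6b2 include 0, and Cox6b2 and Cox7a1 have the lowest estimates, at -1.17 and -0.48.

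Levels varied from library to library within a diet. In X32SI4 and SI9, 64 and 60 of the 79 members were above the mean of the normal cys libraries, in X17SI4 29, and in X1SI4 only 7. The low cys libraries lay between these extremes, with 15 members above that mean in X23SI4, 30 in X26SI4 and 20 in X10SI4. The median CV of a member was 12.2% over the normal cys libraries and 5.07% over the low cys libraries, and 61 members varied more in normal cys, beside 73.2% of all genes. X1SI4, where the members were lowest, had an enterocyte marker sum of 64922 CPM, the second highest. It also had the highest goblet sum, at 22089 CPM. Its sums of crypt proliferation, Paneth, macrophage, and B and plasma cell markers were the lowest, at 132, 832, 21.8 and 198 CPM. So were those of stromal and smooth muscle markers, at 10.9 and 2.53 CPM. The other marker sums were neither highest nor lowest in X1SI4. The part of these cell types in the level of the members was not tested. Members for short proteins (44 under 150 residues) and long ones (17 over 250 residues, both limits chosen after the values were seen) did not deviate equally in every library. In SI9 the median log2 deviation from the 7-library mean was 0.17 for the short and 0.00089 for the long, and in X17SI4 it was -0.03 and 0.10.

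**Figure D2:**
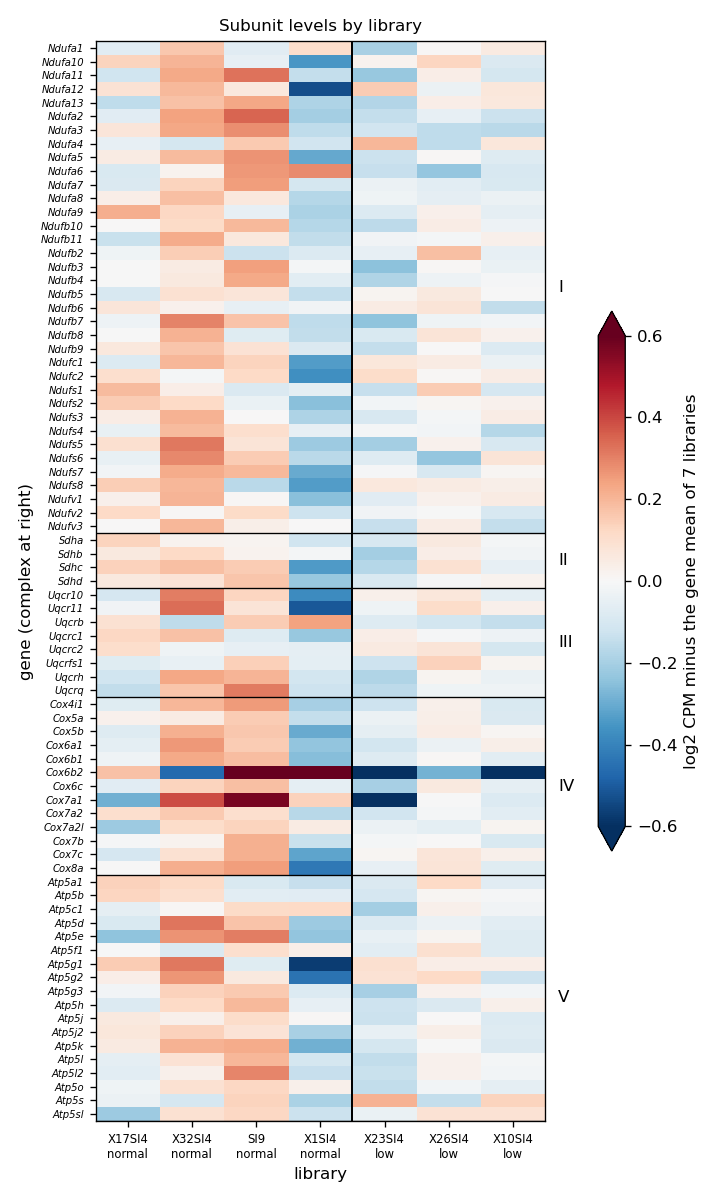
Log2 CPM of each member tested (rows, grouped by complex) in each library (columns, normal cys at the left of the vertical line), minus the gene's mean over the 7 libraries, with colours limited at 0.6 either way. X32SI4 and SI9 are mostly above the mean and X1SI4 is mostly below it, while the 3 low cys libraries are closer to it.

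Summed by complex, the members did not separate the diets. The 37 complex I genes summed to 2631, 2859, 2767 and 2334 CPM in normal cys and 2481, 2576 and 2531 CPM in low cys, a mean difference of -4.48%. The 4 complex II genes summed to 901 ± 73.0 CPM (SD, n = 4) and 865 ± 51.2 CPM (SD, n = 3), the 8 complex III genes to 1474 ± 102 and 1422 ± 46.0 CPM, and the 18 complex IV genes to 2622 ± 334 and 2483 ± 94.8 CPM. Complex V carried the largest sum, 5312 ± 319 CPM in normal cys and 5084 ± 247 CPM in low cys. All 5 differences, -3.50% to -5.29%, were smaller than the SD of the normal cys libraries, and the ranges overlapped in every complex. With plain library size the 5 differences were 4.50% to 6.51%, so that their sign depended on the scaling. This scaling shifted the median of all genes by 0.14 (log2). Relative to that shift the differences were -0.08 to -0.05 on the log2 scale, against -0.08 to -0.05 with TMM, a match that the subtraction brings about. X1SI4 was the lowest library in complexes I to IV and X23SI4 in complex V.

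**Figure D3:**
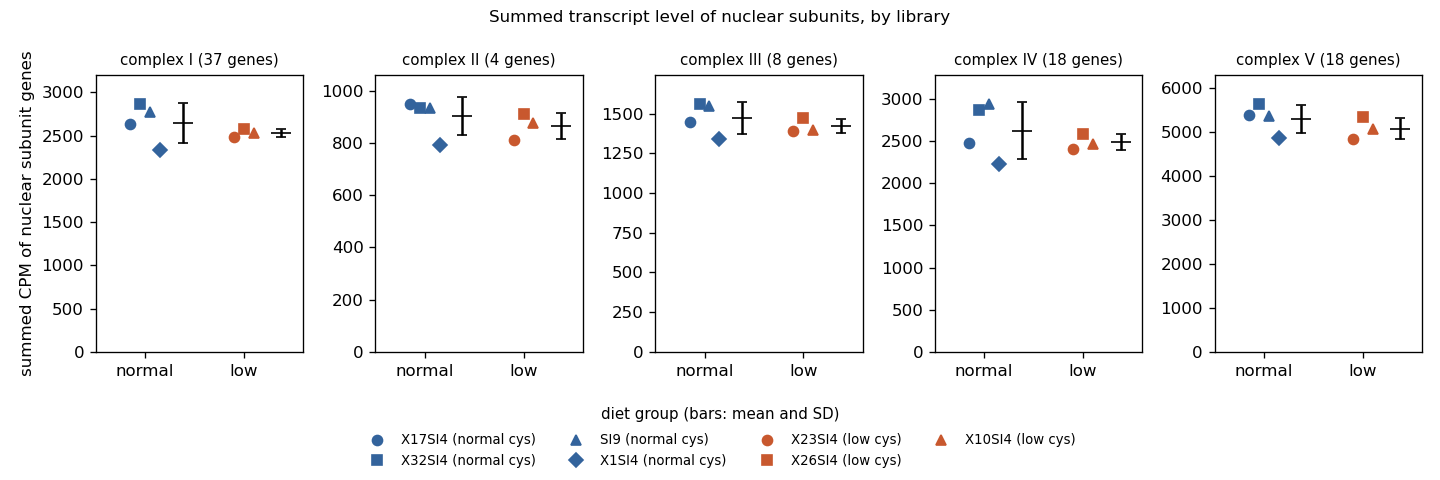
Summed CPM of the nuclear subunit genes of each complex (y axis from 0) by diet group, with 1 point per library and a bar for the mean and SD. The groups overlap in all 5 panels, and X1SI4 (diamond) is the lowest normal cys library in each.

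Within complex I, the 7 catalytic core genes, which bind FMN, most of the iron-sulfur clusters or the quinone, had 5 estimates below 0 and 2 above, with a median of -0.04. Ndufv1, the NADH-binding subunit, was at 107 ± 13.6 CPM (SD, n = 4) and 106 ± 4.53 CPM (SD, n = 3), a log2 fold change of -0.01 (SE 0.13). Ndufs1, the large iron-sulfur subunit, had a log2 fold change of -0.05 (SE 0.13).

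Among the accessory subunits of complex I, Ndufa6 had the smallest p. It was at 101, 109, 128 and 131 CPM in normal cys and 97.5, 91.2 and 100.3 CPM in low cys. All 3 low cys values were below all 4 normal cys values, with a gap of under 1 CPM between the nearest libraries. The log2 fold change was -0.28 (SE 0.13, edgeR adjusted p = 0.794), with a 95% interval from -0.58 to 0.02. Ndufa3 was at 73.4, 81.9, 84.6 and 62.7 CPM and at 64.5, 62.7 and 62.3 CPM, so that X1SI4 lay among the low cys libraries. Its log2 fold change was -0.26 (SE 0.13, edgeR adjusted p = 0.794). On the other side, Ndufc2 and Ndufa4 had the smallest p among complex I estimates above 0, with log2 fold changes of 0.08 and 0.07 (SE 0.14 and 0.13). Ndufa4, named for complex I and now placed in complex IV, had the highest level per length under the complex I names, at 281 RPKM in normal cys.

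The 4 genes of complex II are in the citric acid cycle as well as in the respiratory chain. Sdha, the flavoprotein, was at 386, 357, 357 and 324 CPM in normal cys and at 330, 367 and 349 CPM in low cys. Sdhb, the iron-sulfur subunit, had 14 cysteines in 282 residues, and its log2 fold change was -0.11 (SE 0.12). Sdhc and Sdhd, the membrane anchors, had log2 fold changes of -0.09 and -0.05 (SE 0.16 and 0.13). Sdhc was at 151, 155, 152 and 108 CPM in normal cys, so that X1SI4 alone set its wide spread, and at 122, 146 and 133 CPM in low cys.

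For complex III, 4 estimates were above 0 and 4 below. Uqcrfs1, the Rieske iron-sulfur protein, was at 177, 181, 206 and 179 CPM and at 171, 206 and 189 CPM, with a log2 fold change of 0.02 (SE 0.12). Uqcrb, which binds ubiquinone, had the highest level per length of the complex at 204 RPKM, followed by Uqcrh at 193 RPKM, the hinge protein for cytochrome c1. Uqcrb also had the smallest p of complex III (log2 fold change -0.20, SE 0.13, edgeR adjusted p = 0.794). Of its 50-base transcript stretches, 25.4% are also in other genes, mostly processed copies, so that its counts are less certain. Uqcrq and Uqcrh had log2 fold changes of -0.13 and -0.13, and Uqcr11 0.04.

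Complex IV held the members at the highest levels per deposited exon length and also the 1 member under an unadjusted edgeR p of 0.05. That length was 545 bases for Cox8a and 505 for Cox6b1 but 4237 for Atp5b, the member with the highest CPM, so that the order may differ with other lengths. Cox8a and Cox6b1 were at 527 and 489 RPKM in normal cys, and Cox8a was at 280, 326, 334 and 209 CPM against 271, 296 and 267 CPM in low cys. Cox4i1, Cox6a1, Cox7a2 and Cox7b, the general isoforms, had log2 fold changes of -0.12, -0.08, -0.12 and -0.06 with SE of 0.12 to 0.15. Cox7c had the only estimate above 0 among the 13 complex IV genes tested, at 0.05 (SE 0.14), and 22.1% of its stretches are shared with other genes.

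Cox6b2 was at 7.73, 4.95, 13.0 and 15.3 CPM in normal cys and 3.80, 5.62 and 4.32 CPM in low cys, from 67 to 321 counts. X32SI4 lay within the low cys range, and SI9 and X1SI4 stood highest. The log2 fold change was -1.17 (SE 0.38, edgeR p = 0.0135, adjusted p = 0.794; DESeq2 adjusted p = 0.450), and a two-sided exact permutation test of the CPM over the 35 assignments gave p = 0.143. Per length it was at 18.6 RPKM, and its counts were 4.37% ± 2.51 (SD, n = 4) of those of Cox6b1 in normal cys and 1.96% ± 0.34 (SD, n = 3) in low cys, a ratio that does not depend on library scaling (exact permutation p = 0.20). The 11 enterocyte markers, of which 10 had estimates below 0, summed to 44395, 46866, 66661 and 64922 CPM in normal cys and 24721, 42905 and 44265 CPM in low cys. Their sum was thus also highest in SI9 and X1SI4, although single markers differed in order, with Krt20 highest in X17SI4 and Anpep lowest of the normal cys libraries in X1SI4. X17SI4 and X10SI4 had like enterocyte sums, with Cox6b2 at 7.73 and 4.32 CPM. Other lists stood out in the same libraries. The goblet sum was highest in X1SI4 (22089 CPM), and the crypt proliferation sum was lowest in SI9 and X1SI4 (154 and 132 CPM). The part of these cell types in the level of Cox6b2 was not tested.

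Cox7a1 was at 30.3, 48.7, 55.1 and 40.8 CPM in normal cys and 22.4, 37.0 and 34.99 CPM in low cys, with X17SI4 inside the low cys range. Its log2 fold change was -0.48 (SE 0.24, edgeR adjusted p = 0.794), with an interval from -1.01 to 0.06. Its counts were 27.4% ± 6.40 of those of Cox7a2 in normal cys (SD, n = 4) and 21.2% ± 4.75 in low cys (SD, n = 3, exact permutation p = 0.257). Per length, Cox7a1 was at 120 RPKM in normal cys, a unit that cannot be set against sums in CPM. In CPM, the striated muscle markers summed to 5.31 to 10.5 in normal cys and 3.59 to 10.9 in low cys. Smooth muscle markers summed to 2.53 to 12.1 and 5.84 to 40.4 CPM, and 6 of 6 tested had estimates above 0. The part of muscle cells in the level of Cox7a1 was not tested. The other tissue-restricted isoforms were at or near 0. Cox4i2, Cox6a2, Cox8b and Ndufa4l2 had at most 2 counts in any library, and Cox7b2 and Cox8c had 0 counts in all 7, which allows up to 3 counts per library, or a floor of 0.134 to 0.201 CPM on unscaled library size.

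**Figure D4:**
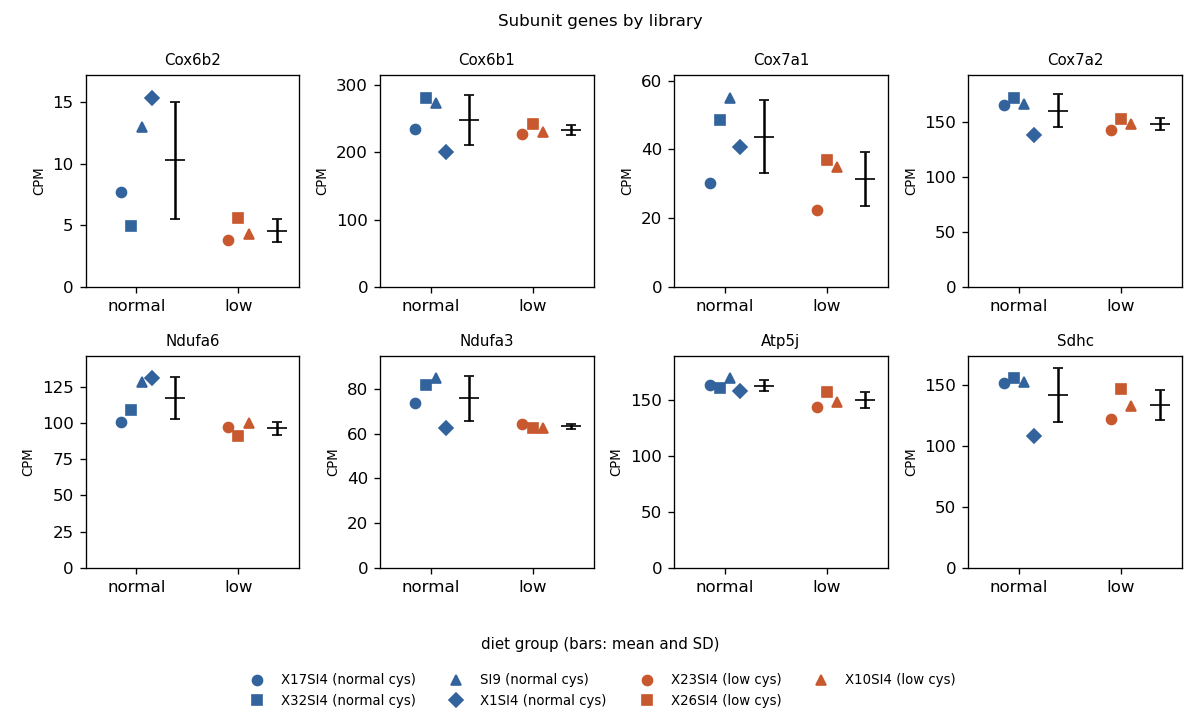
CPM (y axis from 0) of 8 subunit genes by diet group, with 1 point per library and a bar for the mean and SD. In Ndufa6 and Atp5j all low cys libraries are below all normal cys libraries, in Cox6b2 and Cox7a1 the groups overlap by 1 library, and in Sdhc X1SI4 is apart from the other normal cys libraries.

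In complex V, the F1 sector showed 5 of 5 estimates below 0, from -0.12 to -0.02. Of all 79 members tested, 60 were below 0 with TMM, and 69 were above 0 with plain library size. Atp5b, the catalytic beta subunit, was the most abundant member at 1510, 1482, 1322 and 1319 CPM in normal cys and 1289, 1395 and 1376 CPM in low cys, with a log2 fold change of -0.06 (SE 0.14). Atp5l, subunit g of the membrane sector, matched Atp5b per length (333 and 332 RPKM) and had a log2 fold change of -0.08 (SE 0.13). Atp5o, the peripheral stalk subunit that confers oligomycin sensitivity, had the lowest estimate of the complex, -0.13 (SE 0.12).

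Atp5j, coupling factor 6 of the peripheral stalk, was at 164, 161, 170 and 158.4 CPM in normal cys and 144, 157.9 and 149 CPM in low cys. The ranges met within 1 CPM and did not overlap, for which an exact permutation test gave p = 0.0286, the smallest that 35 assignments allow, while edgeR gave p = 0.302 (adjusted p = 0.811) for a log2 fold change of -0.12 (SE 0.11). Atp5j was named partly because its ranges did not overlap, so the permutation p is no separate test of that gap. For Ndufa6, the other member without overlap, the exact permutation test gave p = 0.0571. With plain library size, 0 members lay below the normal cys range in all low cys libraries. The separation of both genes thus depended on the scaling. Of the exon bases of Atp5j, 12.7% overlap Gabpa on the opposite strand, and whether counting used the strand is not given in the sources used here. Atp5s and Atp5sl, which are not structural subunits, had the estimates of smallest p above 0 in the complex, 0.12 and 0.07 (SE 0.19 and 0.13).

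The 3 genes Atp5g1, Atp5g2 and Atp5g3 encode the identical c subunit of the rotor ring, and their shares did not differ beyond the spread. Atp5g3 made up 66.4% ± 4.26 of their summed counts in normal cys (SD, n = 4) and 63.4% ± 2.59 in low cys (SD, n = 3, exact permutation p = 0.314). Atp5g1 made up 20.6% and 22.7%, and Atp5g2 13.1% and 14.0%. Atp5g2 shares 38.4% of its stretches with other genes. The share of Atp5g3 was highest in X1SI4, at 71.7%, and lowest in X23SI4, at 60.4%.

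Across the members, the cysteine content of the protein did not go with the estimates. Proteins translated from the longest coding sequence of 78 members tested had a median of 1.07% cysteine, beside 1.91% over 12609 genes, and 19 had none. Spearman's rho between cysteine percent and log2 fold change was 0.02 over the 78 members and 0.02 over all genes, a description across genes that share the same 7 libraries. The 12 members above 3% had a median log2 fold change of -0.08 and the others of -0.07. The 7 genes listed for the twin CX9C family (Ndufs5, Ndufb7, Ndufb10, Ndufa8, Uqcrh, Cox6b1 and Cox6b2) had 7 estimates below 0 with a median of -0.13. Of all 79 members tested, 60 were below 0. Only Cox6b2 of the 7 was under an unadjusted edgeR p of 0.05. By exact CX9C spacing, the translated Ndufb10 holds 0 pairs, and Uqcrh, Cox6b1 and Cox6b2 hold 1 each. The 7 genes whose products bind an iron-sulfur cluster (Ndufs1, Ndufs7, Ndufs8, Ndufv1, Ndufv2, Sdhb and Uqcrfs1) had 5 estimates below 0 with a median of -0.05. Ndufs8, with 3.77% cysteine, was at 54.1 ± 9.30 CPM (SD, n = 4) and 56.8 ± 0.48 CPM (SD, n = 3).

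The mtDNA-encoded subunits were given beside the nuclear ones. In counts of the same library, the 13 mtDNA genes exceeded the 81 nuclear genes of complexes I, III, IV and V by 5.21, 5.25, 9.54 and 6.50 times in normal cys and 4.79, 6.78 and 6.37 times in low cys. SI9 stood highest, and the other libraries of both diets overlapped. The ratio was 17.8 ± 4.295 (SD, n = 4) and 15.7 ± 2.75 (SD, n = 3) within complex IV, and 1.82 ± 0.74 and 1.78 ± 0.31 within complex V. Of the 4 nuclear subunits under other names, Cyc1 (cytochrome c1) and Ndufab1 had log2 fold changes of 0.02 and 0.05, and Usmg5 and 2010107E04Rik -0.21 and -0.13, none at p under 0.05.

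Around the complexes, 132 genes of 15 related lists were tested, of which 1 was higher and 4 were lower at an unadjusted edgeR p under 0.05, beside 2.66% and 2.83% of all genes, all with an adjusted p of 0.794. With plain library size none of the 4 remained under that p. Cs, citrate synthase, was at 999.5, 997, 1036 and 872 CPM in normal cys and 587, 786 and 762 CPM in low cys, a log2 fold change of -0.46 (SE 0.16) without overlap. Ogdh of the same cycle had -0.34 and the outer membrane channel Vdac2 -0.28. Gpd2, which feeds electrons from glycerol 3-phosphate to ubiquinone, had -0.40. Each of them was also without overlap, and no other gene of the 132 was in this direction, where the share of all genes was 3.51%. In the opposite direction Acn9, Isca1 and Tomm70a had no overlap between the diets, where the share of all genes was 3.32%. Tfb2m, a mitochondrial transcription factor, had 0.42. Of 15 genes of iron-sulfur cluster assembly, 0 passed an unadjusted p of 0.05 in either direction and 12 had estimates above 0, with a median of 0.11. Nfs1 was at 30.2 ± 1.69 CPM (SD, n = 4) and 32.2 ± 2.09 CPM (SD, n = 3), a log2 fold change of 0.09 (SE 0.11, edgeR adjusted p = 0.843). The lists for complex I assembly (13 genes) and mitochondrial import and mass (14 genes) had 0 genes under that p and medians of 0.14 and 0.14. Ppargc1a, Nrf1, Gabpa and Yy1, regulators of subunit genes, had log2 fold changes of -0.06, -0.06, 0.06 and 0.03. They are part of a list of 14 mitochondrial biogenesis regulators that also holds Tfb2m. In that list 11 genes had estimates above 0 and 3 below, with a median of 0.19.

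**Figure D5:**
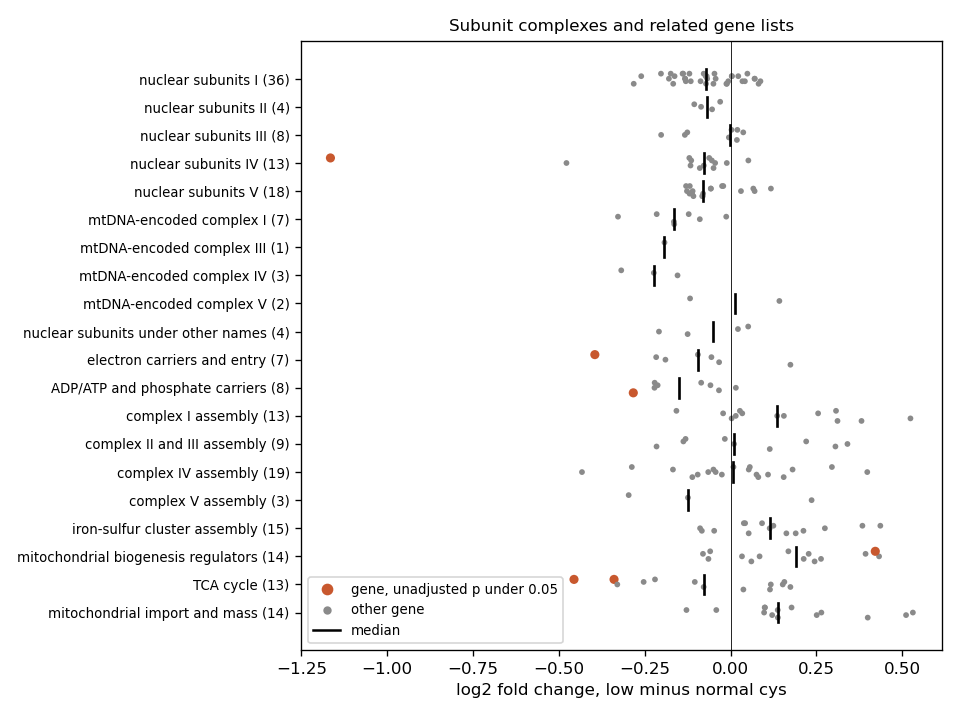
Log2 fold change (low minus normal cys, x axis) of each gene tested in the 5 complexes and 15 related lists (rows, number of genes in brackets), with a bar at the median and large points for an unadjusted p under 0.05. The nuclear subunit genes are bunched within 0.3 of 0 apart from Cox6b2 and Cox7a1, and the 5 large points outside the complexes are Cs, Ogdh, Gpd2, Vdac2 and Tfb2m.

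Leaving out 1 library changed which members stood apart. Without X1SI4, 14 of the 79 members had all low cys libraries below all normal cys libraries, a larger share than the 5.26% of all genes tested. In that fit 72 of the 79 members had estimates below 0. Without X17SI4 or X26SI4, 5 members lay below in this way (9.39% and 8.05% of all genes), and without X23SI4 1 did (4.20%). At an unadjusted p under 0.05, 3 members were lower without X17SI4 (5.63% of all genes), 2 without X1SI4 (2.22%) and 0 without X23SI4 (0.551%), where Cox6b2 no longer passed. No member reached an adjusted p under 0.05 in any of these fits.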

How the data were processed

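PolyA RNA of ileal scrapings was sequenced in 7 libraries, with groups taken from the diet in the labels. Raw counts for each gene were deposited by the authors. Per their methods, reads were trimmed with Trim Galore, freed of ribosomal sequences, aligned to GRCm38 with STAR and counted with featureCounts on the Ensembl release 70 annotation. How strand and multimapping reads were handled is not given in the sources used here.

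Counts were filtered with filterByExpr (minimum count 10, minimum total 15), scaled by TMM, and tested over all 14869 genes in edgeR 4.0.16 (R 4.3.3; quasi-likelihood F-test, robust, no covariate). P-values were adjusted by Benjamini-Hochberg over all genes, and SE is the log2 fold change divided by the root of F. Alternatives were DESeq2 1.42.0, limma-voom 3.58.1, other scalings, filters and a non-robust fit, and leaving out each library. The test was checked on simulated data. Single values were compared by exact permutation over 35 assignments, two-sided. Sums over members and lists are descriptions.

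Members and lists were chosen with earlier results of these data known. Named members were, in each complex, the 2 with the highest level per length and the 2 with the smallest p in each direction, plus complex II, tissue-restricted isoforms with their general forms, iron-sulfur proteins and members without overlap, and per related list the 2 with the smallest p under 0.05, and Nfs1. Regulators, subunits under other names, 2 enterocyte markers, the c-ring genes and Acn9, Isca1 and Tomm70a were named in addition, after their values were seen. Proteins were translated from GENCODE M21 coding sequences, in place of the RefSeq proteins planned. The YY1 motif was added later. Stretches of 50 bases were compared between GENCODE transcripts.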

Additional observations from a re-analysis of the deposited data

Results flagged for a closer look

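Among the 4 normal cys libraries, 50 values of named members, complex sums and ratios were examined for a library far from the others by Dixon's test, at its 95% level, for which chance flags about 1 in 20, or 2.5 here, and 3 were found. Sdhc was at 108 CPM in X1SI4 and at 151 to 155 CPM in the other 3 libraries. The summed level of complex II, to which Sdhc belongs, was at 792 CPM in X1SI4 and at 932 to 947 CPM in the others. Uqcrfs1 was at 206 CPM in SI9 and at 177 to 181 CPM in the others. Groups of 3 libraries were not examined.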

How the results depend on the processing

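Under every scaling, tool and filter tried, and without each library in turn, 0 members had an adjusted p under 0.05 and 0 were higher at an unadjusted p under 0.05. The members lower at that p were 2 without a filter on low counts (2.50% of all genes), and 0 to 3 with 1 library left out (0.551% to 5.63%). With plain library size, 2 members lay above the normal cys range in all low cys libraries and 0 lay below it in all, beside 7.20% and 1.05% of all genes. The number below was 4 without a filter (3.11% of all genes) and 1 with at least 10 counts in every library (3.42%). With 1 library left out, 1 to 14 members were below, where the share of all genes was 4.20% to 9.39%. The 14, without X1SI4, stood beside 5.26% of all genes. The number above was then 0 to 1 (4.16% to 11.6%). The median log2 fold change was 0.0702 with plain library size and -0.13 to -0.02 with 1 library left out. With plain library size the log2 ratio of summed levels was 0.0753 for complex I, 0.0807 for II, 0.091 for III and 0.0769 for V, and 0.069, 0.0753, 0.0847 and 0.0716 when mtDNA genes were left out of the library size. Plain library size moved the median of all genes by 0.14, and relative to that the sums were at -0.07, -0.06, -0.05, -0.08 and -0.07 for complexes I to V. Subtracting the shift removes the effect of scaling, so that these values do not check it. With 1 library left out the 5 sums stayed at -0.15 to 0.00 (complex I -0.12 to -0.01, II -0.12 to 0.00, III -0.09 to -0.01, IV -0.15 to -0.02, V -0.10 to -0.02). The mean of log2 CPM, which weights each member equally, gave -0.16 for complex IV, and with it, with DESeq2 size factors and without Atp5l2 all 5 sums stayed below 0. In the related lists, DESeq2 put 0 genes higher and 4 lower at an unadjusted p under 0.05 (Cs, Ogdh, Gpd2 and Vdac2), and plain library size 5 higher and 0 lower. Spearman's rho with the number of cysteines was 0.15. Of 495 alternative log2 fold changes of 33 named members, 473 kept their sign and 22 did not, all of the latter within 0.11 of 0. Those on plain library size were taken relative to the shift of the median of all genes, so that they could not show a reversal by scaling alone. Ndufv1 was at 0.00262 with limma-voom and at 0.00254 with at least 10 counts in every library. With 1 library left out, the log2 fold change ran from -0.00144 to 0.182 for Ndufa4, -0.0168 to 0.129 for Ndufc2, -0.073 to 0.0182 for Sdha, -0.1 to 0.185 for Uqcr11, -0.0239 to 0.0947 for Uqcrfs1, -0.171 to 0.0386 for Cox8a, -0.0369 to 0.131 for Cox7c, -0.161 to 0.0193 for Cox6a1, -0.113 to 6.34e-05 for Cox7b, -0.121 to 0.0172 for Ndufs1, -0.168 to 0.015 for Ndufs7, -0.0208 to 0.168 for Ndufs8 and -0.0837 to 0.0824 for Ndufv1. No paired analysis was made, since by the paper's methods the diets were given to separate groups of mice. Depth limits what can be said of the 6 members left untested; for the others the 4 and 3 libraries limit the precision.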
